A study of Mus musculus with 2 samples.

Results

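The cells described here are the alveolar type 1 (AT1)-like cells of organoids treated with IL-1β. They are 305 of the 3066 cell barcodes in the droplet-based scRNA-seq library of IL-1β-treated organoids, and 5167 barcodes were deposited for both libraries. Members were chosen by UMI counts, a UMI being a unique molecular identifier that stands for 1 captured transcript. A barcode counted as epithelial when its summed UMIs of Epcam, Cdh1, Cldn3, Cldn7 and Krt18 exceeded those of Col1a2, Col3a1, Sparc and Dcn. An epithelial barcode was a member when it held 4 or more UMIs of Hopx, Rtkn2 and Akap5 together. These 12 genes selected the cells and are given below as a description only.

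AT1 cells are the thin, flat cells that cover most of the gas-exchange surface of the alveolus and form its barrier with the capillaries. They share a basement membrane with the endothelium, move ions and water, and carry tight junctions that seal the air space. Alveolar type 2 (AT2) cells make surfactant and replace AT1 cells after injury, passing through a transient state marked by Krt8 and Cldn4 whose cells have been named damage-associated transient progenitors (DATPs).

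AT2 cells labelled through Sftpc-CreERT2 (also written SPC-CreERT2) and the R26RtdTomato reporter after tamoxifen were taken from C57BL/6 mice and cultured in Matrigel beside stromal cells of the lung. Organoids received IL-1β, the cytokine whose effect on alveolar cells was in question, or PBS as the control, and the series description gives 2 weeks of culture. The sources differ on the IL-1β dose and the day of harvest, which are not given here. Both conditions share the reporter, tamoxifen and the stromal co-culture. The Cre driver marks cells that expressed Sftpc when tamoxifen was given, and dissociated organoids were not sorted for the label, so stromal barcodes are present. With 1 library per condition, library and treatment cannot be told apart, and cells of a library are not replicates. No p-value was therefore computed. Intervals are exact 95% limits that cover counting error only.

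The 305 members held 4107042 UMIs, with a median of 11966 UMIs and 3521 genes per cell. They made up 12.8% (11.5 to 14.2) of the 2380 epithelial barcodes of the IL-1β library. The comparison within this library is with the 2039 epithelial barcodes that held 2 or fewer UMIs of Hopx, Rtkn2 and Akap5 (gate-low cells), whose median was 11343 UMIs. Of these, 191 held 4 or more UMIs of Cldn4, Ndrg1 and Sprr1a together and are called transitional gate-low cells. In the control library the same rule found 109 of 1029 epithelial barcodes, or 10.6% (8.78 to 12.6), with a deeper median of 16397 UMIs. The 2 libraries share 11 barcodes, 1 of them a member.

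The gate sum ran from 4 to 130 UMIs per member with a median of 13. Akap5, which encodes a scaffold protein for protein kinase A, gave 72.8% of these UMIs and was found in 303 members. Hopx, a homeodomain-like regulator used as an AT1 marker, was found in 224 members (73.4%). Rtkn2, a further AT1 marker, was found in 168 (55.1%). On GRCm38, in the GENCODE annotation, Akap5 lies at chr12:76324891-76334153 (plus strand), Hopx at chr5:77086988-77115121 (minus) and Rtkn2 at chr10:67979570-68059740 (plus). All 3 genes were present in 132 members, and 46 members passed on Akap5 alone. There was no gap at the limit, since 36 epithelial barcodes held 3 UMIs and 29 held 4.

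The stromal side of the gate also bore on membership. Sparc encodes a secreted matrix protein that AT1 cells also make, and members held 1304 CPM of it (UMIs per 1000000, summed over cells) against 227.8 in gate-low cells. Of 445 IL-1β barcodes with 4 or more gate UMIs, 138 failed the epithelial gate only through Sparc and 2 failed without it as well. Of 359 such control barcodes, 227 failed only through Sparc and 23 failed without it. The control library therefore lost the larger part of its candidates at this step. With Sparc left out, a choice made after seeing the data, members numbered 443 of 2567 (17.3%) in the IL-1β library and 336 of 1293 (26.0%) in the control library, and the order of the shares was turned. Ager, encoding the receptor RAGE of the AT1 basolateral membrane, stood at 9268 CPM in the 138 barcodes lost through Sparc and at 5307 CPM in the members. In the control library it stood at 13050.9 CPM in the barcodes lost and at 3530 CPM in those that passed. Barcodes called non-epithelial below are the 494 of the IL-1β library and the 778 of the control library that failed the epithelial gate with Sparc left out as well and held 2 or fewer gate UMIs. The barcodes lost through Sparc are not among them. Counts of the main gene lists against the control library are given below by both gates, as are most of the genes named.

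**Figure D1:**
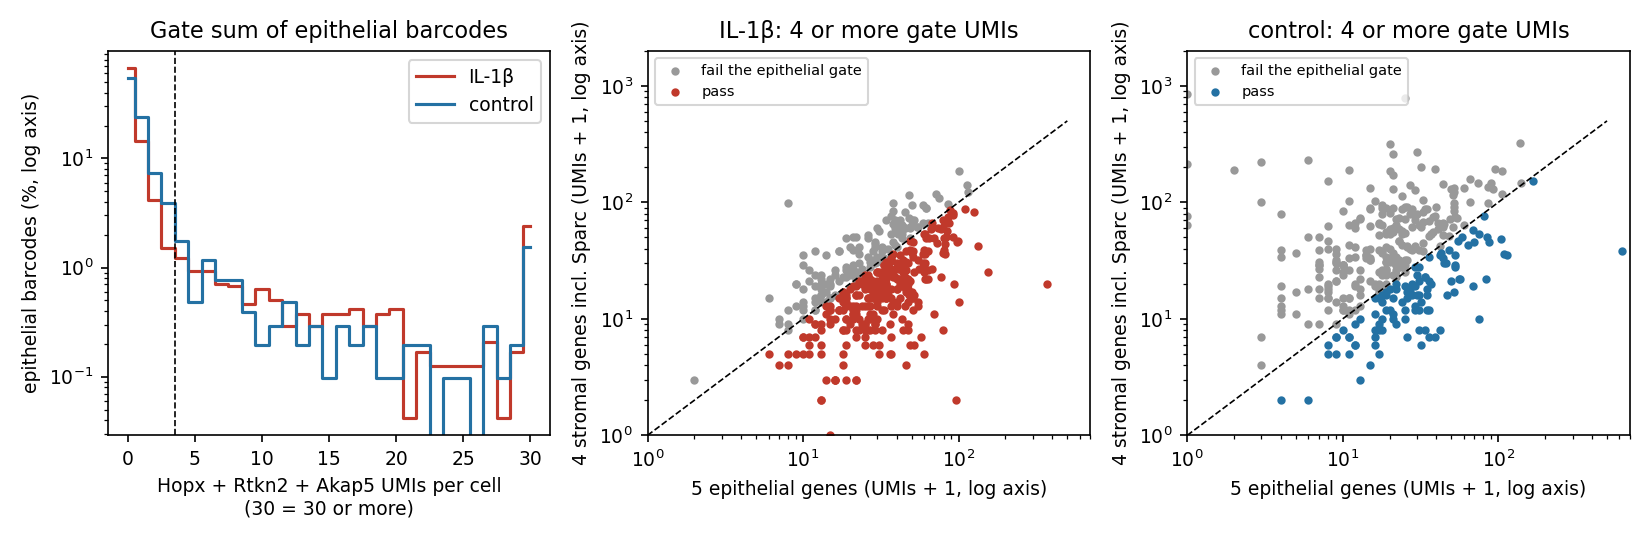
Left, share of epithelial barcodes (%, log axis) by summed UMIs of Hopx, Rtkn2 and Akap5, with the limit between 3 and 4 UMIs dashed. Middle and right, the epithelial and stromal gene sums (UMIs + 1, log axes) of barcodes with 4 or more of these UMIs in the IL-1β and control libraries; points on or above the dashed line of equality fail the epithelial gate, 140 of 445 in the IL-1β library and 250 of 359 in the control library.

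Itgb6 and Cldn4, which the gate did not use, are described next. Both are on the list of DATP and transitional genes used below, so they are no test of the AT1 label. Itgb6 encodes the integrin β6 chain, which pairs with αv to activate latent TGF-β on epithelial cells (chr2:60598292-60722643, minus strand). It ran from 0 to 1356 CPM over the members with a median of 209.5 CPM, and summed to 274.2 CPM against 26.91 CPM in gate-low cells (10.2-fold, 9.25 to 11.2). After every barcode was thinned to 4500 UMIs, Itgb6 was found in 63.0% of members, 9.51% of gate-low cells and 1.62% of non-epithelial barcodes (median depths before thinning 11966, 11343 and 14246.5 UMIs). Without thinning, Itgb6 was found in 84.9%, 19.5% and 7.49% of these barcodes. The non-epithelial barcodes are cell barcodes and not empty droplets, so their share is only a rough guide to free RNA. Cldn4, a tight junction claudin induced in the transitional state (chr5:134945119-134946934, minus strand), ran from 0 to 3417 CPM with a median of 150 CPM. Thinned, it was found in 53.1% (47.3 to 58.8) of members, 14.7% of gate-low cells and 3.85% of non-epithelial barcodes, and without thinning in 74.4%, 27.7% and 10.3%. Of the transitional gate-low cells, which Cldn4 helped to choose, 48.7% held it after thinning. At either depth a larger share of members than of gate-low cells held a UMI of Itgb6 or Cldn4.

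Over all genes, 10076 had at least 100 UMIs in members and gate-low cells together. A gene is called higher or lower at a ratio of at least 2 or at most 0.5 with an interval that leaves out 1. By this rule 852 genes (8.46%) were higher and 439 (4.36%) lower in the members, and the median log2 ratio was 0.26. When surfactant, lysozyme, mitochondrial and ribosomal protein genes were left out of the totals, the median fell by 0.26, and 517 genes were higher and 635 lower. Since members were selected on UMIs of the same library, these ratios are descriptions of the cells the gate picked.

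Genes of AT1 identity came first. All 24 that reached 100 UMIs were higher in the members, out of 25 on the list, with a median log2 ratio of 3.11. Ager (chr17:34597862-34600936, plus strand) ran from 148.8 to 19182.5 CPM over the members with a median of 4265 CPM, beside a median of 388.5 CPM in gate-low cells and 125 CPM in non-epithelial barcodes. The summed levels were 5307 and 594.5 CPM in members and gate-low cells (8.93-fold, 8.74 to 9.12). The ranges overlapped, since the highest gate-low cell reached 7396 CPM of Ager. Aqp5, the water channel of the AT1 apical membrane, stood at 1434 CPM against 252.3 CPM (5.68-fold, 5.48 to 5.89). Emp2, a tetraspan membrane protein, stood at 1577 against 327.1 CPM (4.82-fold, 4.66 to 4.98).

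Clic5, Cav1 and Tmod1, examples picked from the 15 highest genes, had larger ratios than Ager. Clic5, encoding a chloride intracellular channel protein that binds the actin cortex, stood at 341.9 CPM in members and 19.96 CPM in gate-low cells (17.1-fold, 15.4 to 19). Cav1, the main protein of AT1 caveolae, was 35.3-fold higher (23.4 to 55.3), but it was found in only 86 members (28.2%) and its level was 39.2 CPM. Tmod1, which caps the pointed end of actin filaments, was 22.6-fold higher (18.5 to 27.7). Of 17 genes of the actin cytoskeleton measured, 7 were higher and none lower, among them Msn, encoding the membrane linker moesin (435.8 against 113.3 CPM).

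Sema3e, Sema3a, Fbln5 and Wnt7a were among the 15 highest genes. They are examples picked for their role, and no list of such genes was counted. Sema3e, a semaphorin that acts on vessels and axons, stood at 145.8 CPM in members and 4.39 CPM in gate-low cells (33.2-fold, 27.0 to 41.1), and 193 members held it. Its relative Sema3a was 26.7-fold higher (17 to 43.4). Fbln5, a protein of elastic fibres, stood at 289.5 against 11.09 CPM (26.1-fold, 22.9 to 29.9). Wnt7a, a Wnt ligand, was 23.4-fold higher (16.1 to 34.7) at a level of 34.57 CPM.

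Part of the integrin and basement membrane list was also higher in the members. Col4a3 and Col4a4 encode the type IV collagen chains of the fused alveolar and capillary membrane. Col4a3 stood at 147.1 against 8.38 CPM (17.6-fold, 14.9 to 20.7) and Col4a4 at 201.6 against 15.16 CPM (13.3-fold, 11.8 to 15.1). Lama3, a laminin chain of epithelial basement membranes, was 14.4-fold higher (11.4 to 18.4). Of 18 integrin and basement membrane genes measured, 10 were higher and none was lower, with a median log2 ratio of 1.12. Col4a1, the chain common to most basement membranes, differed less (263.7 against 121.8 CPM).

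Junction and channel genes were mixed. Of 14 tight junction genes measured, 7 were higher and 2 lower. Cldn18, the main claudin of the alveolar epithelium, stood at 3397 against 787.8 CPM (4.31-fold, 4.22 to 4.41), and Ocln, encoding occludin, at 123 against 22.43 CPM (5.48-fold, 4.85 to 6.20). Cldn2, a claudin that forms cation pores, was 13.0-fold lower (7.21 to 26.1). Among 14 ion and water transport genes, 6 were higher and 2 lower. The 3 subunits of the epithelial sodium channel were among the higher transport genes: Scnn1g was 22.4-fold (16.3 to 31.3), Scnn1b 10.4-fold (8.38 to 12.9) and Scnn1a 4.35-fold (3.99 to 4.74) above gate-low cells.

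Some genes of the mature AT1 cell were near the limit of detection in the members. Igfbp2, a secreted binding protein of insulin-like growth factors and a marker of terminally differentiated AT1 cells, had 1 UMI in the 305 members and 2 in the gate-low cells. Spock2, a matrix proteoglycan of AT1 cells, stood at 15.1 CPM and was found in 40 members (13.1%), with 62 UMIs. The 138 barcodes lost through Sparc held more of both, with 139 UMIs of Spock2 in 54 barcodes and 27 of Igfbp2 in 9. Vegfa, the AT1 signal to capillaries, stood at 237.4 against 80.76 CPM (2.94-fold, 2.72 to 3.18).

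**Figure D2:**
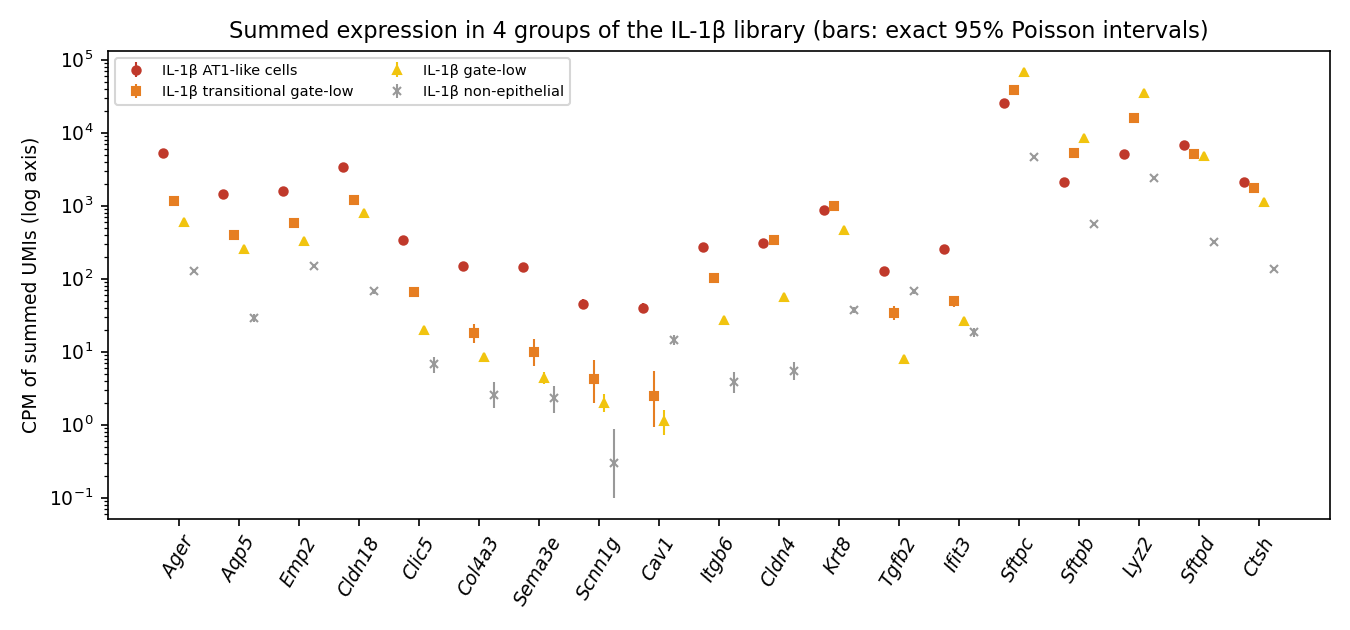
Summed level (CPM, log axis) of 19 genes in members, transitional gate-low, gate-low and non-epithelial barcodes of the IL-1β library, with exact 95% Poisson intervals as bars. AT1 genes such as Ager (5307 CPM in members) step down from members over transitional to gate-low cells, Sftpc, Sftpb and Lyz2 run the other way, and Sftpd and Ctsh are highest in members; for Cav1 and Tgfb2 the non-epithelial barcodes lie above the gate-low cells.

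AT2 genes were lower but unequal. Of 19 measured, 12 were lower, none was higher, and the median log2 ratio was -1.22. Sftpc, encoding surfactant protein C, ran from 2160 to 108616.1 CPM over the members with a median of 16396.3 CPM, beside medians of 66503.6 CPM in gate-low cells and 3590 CPM in non-epithelial barcodes. Its summed level was 2.68-fold lower than in gate-low cells (2.67 to 2.70). Lyz2, encoding a lysozyme of AT2 cells, was 6.98-fold lower (6.88 to 7.07), and the members' median of 2156 CPM was close to the 1720 CPM of non-epithelial barcodes. The part of free RNA in the members' level of Lyz2 was not tested. Sftpb, encoding surfactant protein B, was 4.03-fold lower (3.94 to 4.12). Cebpa, a transcription factor of AT2 cells, was 3.01-fold lower (2.69 to 3.38).

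A pair of genes on the AT2 list lay above the gate-low level without reaching 2-fold. Sftpd, encoding the collectin surfactant protein D, stood at 6737 CPM in members and 4732 CPM in gate-low cells (1.42-fold, 1.41 to 1.44), and at 318.8 CPM in non-epithelial barcodes. Ctsh, encoding the protease cathepsin H, stood at 2138 against 1118 CPM (1.91-fold, 1.87 to 1.96). Lipid synthesis genes followed the AT2 genes in part, with 4 of 16 lower and none higher. Scd1, a fatty acid desaturase, stood at 2569 against 5220 CPM (2.03-fold lower, 1.99 to 2.07).

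Of 22 DATP and transitional genes measured, 14 were higher in the members and none lower, with a median log2 ratio of 1.26. Krt8, a keratin of simple epithelia, stood at 875.6 against 465.1 CPM (1.88-fold, 1.81 to 1.96), short of the 2-fold limit. Krt19, its partner type I keratin, was 2.54-fold higher (2.39 to 2.69). S100a6, a calcium-binding protein, was 6.18-fold higher (5.92 to 6.45), and Lhfp, a tetraspan membrane protein, 8.84-fold (7.22 to 10.8). AW112010, an interferon-responsive transcript, stood at 717.8 against 122.2 CPM (5.87-fold, 5.58 to 6.18). Cdkn1a, encoding the cell cycle inhibitor p21, stood at 410.8 against 185 CPM (2.22-fold, 2.10 to 2.35), and was 1 of 5 higher genes among 15 of the p53 and senescence list.

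Genes of TGF-β activation and YAP targets had a median log2 ratio of 1.70, and 9 of 16 were higher. Tgfb2, a TGF-β ligand, stood at 126.1 against 7.89 CPM (16.0-fold, 13.5 to 19). Cyr61, a secreted YAP target, stood at 237.4 against 37.26 CPM (6.37-fold, 5.82 to 6.98). Ankrd1, a YAP target that led the ranking, was 64.2-fold higher (39.0 to 112), but 23 members held all 184 of its UMIs and 10 cells held 91.9% of them. Cyp2b10, a cytochrome P450 that ranked second, was found in 48 members. These first ranks thus described few cells, unlike that of Ager, which every member held.

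Among 18 ligands and growth factors, 9 were higher and 1 lower. Pdgfa, the platelet-derived growth factor chain that signals to alveolar fibroblasts, stood at 337.7 against 89.55 CPM (3.77-fold, 3.52 to 4.04). Hbegf, a ligand of the EGF receptor, was 5.68-fold higher (5.14 to 6.27). Bmp2, a bone morphogenetic protein, was 3.27-fold lower (2.09 to 5.42). Among 17 transcription factors, Klf4 and Tead1 were higher and Elf5 and Cebpa lower. Nkx2-1, the lineage factor of lung epithelium, stood at 446.6 against 268.4 CPM.

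Inflammatory genes did not separate members from gate-low cells in 1 direction. Of 21 NF-κB targets and chemokines, 5 were higher and 2 lower. Icam1, an adhesion molecule for leukocytes that AT1 cells carry, stood at 1278 against 397.3 CPM (3.22-fold, 3.11 to 3.33). Lcn2, encoding the iron-binding lipocalin 2, was 2.07-fold lower in members (2.04 to 2.09), and Ccl20, a chemokine for lymphocytes and dendritic cells, 4.72-fold lower (4.07 to 5.50). Ccl20 lay in few cells, 10 gate-low cells holding 80% of its UMIs and 10 members 84.7%. Of 17 interferon and MHC class I genes, 8 were higher and none lower. Ifit3, an interferon-induced antiviral gene, stood at 251 against 26.62 CPM (9.43-fold, 8.54 to 10.4), and Gbp2, a guanylate-binding protein, was 8.55-fold higher (6.61 to 11.1). None of the 6 MHC class II genes passed 2-fold, with Cd74, the invariant chain, at 10692.9 against 8138 CPM. Of 21 glycolysis and hypoxia genes, 2 were higher and none lower, and over the alternatives 0 to 10 were higher.

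Markers of other cell types were low in the members. Of 7 airway genes measured, 6 were lower and 1, Tppp3, was higher. The list summed to 273.4 CPM, of which Tppp3 gave 189.4 CPM, against 827.4 CPM in gate-low cells, and Krt5, Trp63 and Muc5b were at 0. Scgb3a2, a secretoglobin of airway secretory cells, was 88.9-fold lower (38.0 to 274), resting on 5 UMIs in members and on few gate-low cells, 10 of which held 98.3% of its UMIs there. Likewise, 10 gate-low cells held 97.1% of the UMIs of Scgb3a1, the top airway gene of that group. The stromal list of 14 genes summed to 289.5 CPM against 336.6 CPM in gate-low cells and 6854 CPM in non-epithelial barcodes, its top gene was Col6a1 at 75.97 CPM, and Des was at 0. The immune list summed to 35.79 CPM, of which Cd68 gave 34.33 CPM, with Ptprc, C1qa, C1qb and Adgre1 at 0. The endothelial list summed to 1.22 CPM, with Cdh5 and Kdr at 0. Of 5 cell cycle genes measured, 2 were lower, and 1 of 9 stress genes was lower.

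Members differed among themselves along the gate sum. From the 51 members with 4 to 5 gate UMIs to the 94 with 20 or more, Ager went from 2615 to 7314 CPM, Clic5 from 94.49 to 523.2 CPM and Cav1 from 12 to 65.7 CPM. Over the same bins Sftpc went from 34848.4 to 16724.8 CPM and Lyz2 from 9620 to 2984 CPM. The bins are of the sum that chose the members, so these opposite directions describe the gate and are no independent result. Median depth was 10588 UMIs in the first of these bins and 15150 UMIs in the last, and its part in these values was not tested. Cldn4 went from 436.4 to 285.7 CPM and Sprr1a, a cornified envelope protein of the transitional list, from 848.7 to 179 CPM. Just outside and just inside the limit, at 3 and 4 UMIs, Ager stood at 2291 and 2741 CPM, Sftpc at 37364.5 and 33542 CPM, Cldn4 at 245.4 and 371.6 CPM, and Sprr1a at 151.6 and 840 CPM. Sprr1a lay in few cells, 10 of the members holding 73.4% of its UMIs.

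**Figure D3:**
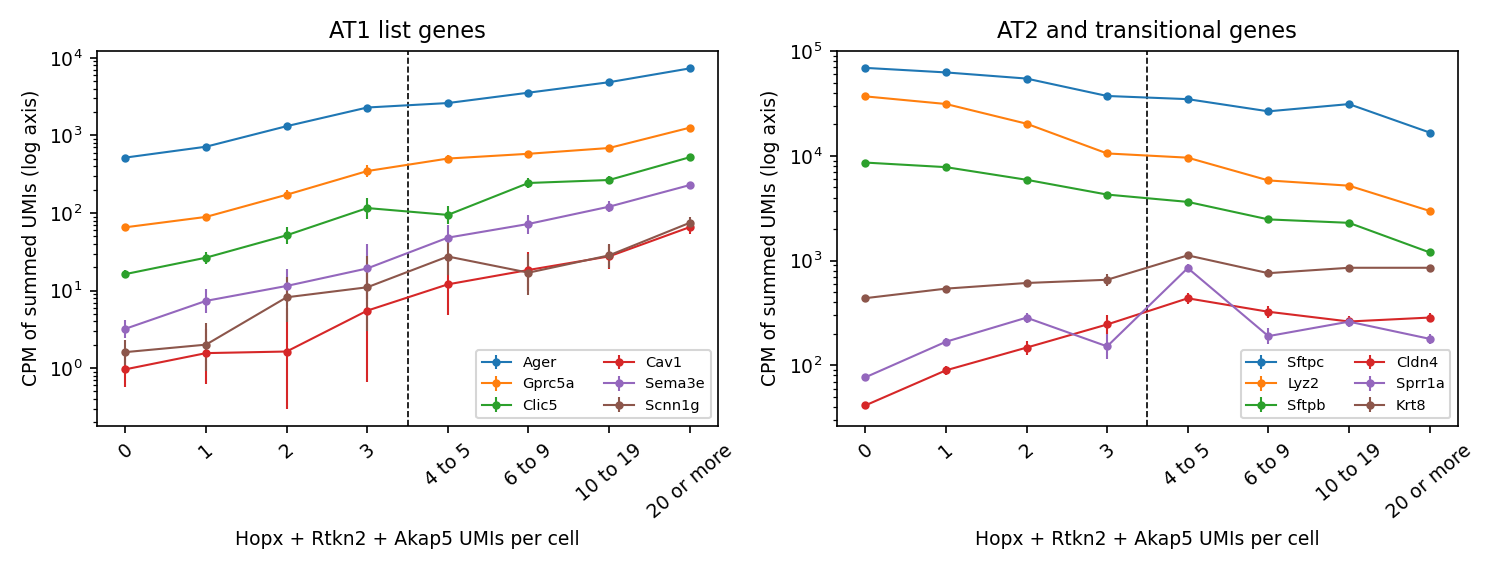
Summed level (CPM, log axis) in epithelial barcodes of the IL-1β library by UMIs of Hopx, Rtkn2 and Akap5, with exact 95% Poisson intervals as bars and the limit between 3 and 4 UMIs dashed. Ager, Gprc5a, Clic5, Cav1, Sema3e and Scnn1g are higher in the last bin than in the first, Sftpc, Lyz2 and Sftpb are lower, and Sprr1a and Krt8 are highest in the bin just inside the limit (848.7 and 1122 CPM).

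A split by Sftpc showed which genes went with a lower AT2 level. In the 102 members with the least Sftpc its level was 5135 CPM, and in the 102 with the most 53470.2 CPM. Lyz2, which the split did not use, stood at 2352 and 9217 CPM. Ager stood at 7128 and 3572 CPM and Cav1 at 66.97 and 14.94 CPM. Cldn4 stood at 488.9 and 183.1 CPM and Krt19 at 645.9 and 233.1 CPM. The members low in Sftpc were thus the higher ones for AT1 genes and for Cldn4 and Krt19 alike.

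A split by Cldn4 set a subset apart. Thinned to 4500 UMIs, 68 members held 2 or more Cldn4 UMIs and 143 held none. Krt8 stood at 1364 CPM in the former and 616 CPM in the latter, Krt19 at 693.8 and 249.2 CPM, and Sfn, the p53-induced 14-3-3σ protein, at 462.6 and 180.7 CPM. Ager stood at 5787 and 4850 CPM and Sftpc at 14094.3 and 30588.8 CPM. Cldn4-high members therefore carried the AT1 receptor at a similar level and more of the keratins. The 23 members with Ankrd1, looked at after its values were seen, held 968.9 CPM of Cldn4 against 234.1 CPM in the other members, with Krt8 at 1955 against 756.6 CPM and Ager at 5141 against 5326 CPM. Their median depth was 14998 UMIs against 11664.5 UMIs, and 15 of the 23 were among the Cldn4-high members. Ankrd1 was also high (168.4 CPM) in the 28 members deeper than 2 times the median. Doublets were not removed, and their part in these subsets was not tested.

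Within the library, members were also compared with the 191 transitional gate-low cells alone. Of 6861 genes measured, 368 (5.36%) were higher and 117 (1.71%) lower in the members, with a median log2 ratio of 0.14. Without surfactant, lysozyme, mitochondrial and ribosomal protein genes in the totals these were 270 and 153, and the median fell by 0.13. Both comparisons within the library share the members and the transitional cells are part of the gate-low cells, so they are not independent.

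AT1 genes set members apart from transitional cells as well. Of 23 measured, 20 were higher and none lower, with a median log2 ratio of 2.09. Ager stood at 5307 CPM in members and 1147 CPM in transitional cells (4.63-fold, 4.45 to 4.82), Sema3e at 145.8 against 10.0 CPM (14.6-fold, 9.69 to 22.9) and Fbln5 at 289.5 against 20 CPM (14.4-fold, 10.8 to 19.7). Itgb3, an integrin chain that binds vitronectin, was 18.4-fold higher (8.29 to 50.7). Of 16 integrin and basement membrane genes, 8 were higher and none lower. For the interferon list the counts were 6 higher and none lower of 17, with Ifit3 at 251 against 48.83 CPM (5.14-fold, 4.24 to 6.28). Over the alternatives, 0 to 6 genes of this list were higher, with 9 to 17 measured.

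Transitional genes differed in few cases. Of 18 measured, leaving out the 3 used to choose the transitional cells, Itgb6, Lhfp and Hbegf were higher, none was lower, and the median log2 ratio was -0.23. Since the transitional cells were chosen on genes of the same state, this list is not independent of their choice. Krt8 stood at 875.6 against 1003 CPM, Krt19 at 387.6 against 464.1 CPM and Tnip3, an inhibitor of NF-κB signalling, at 158.5 against 192.4 CPM. Cdkn1a stood at 410.8 against 381.1 CPM (1.08-fold, 0.994 to 1.17). AT2 genes were nearer than in gate-low cells, with 5 of 19 lower and none higher, Lyz2 among them (3.18-fold lower, 3.13 to 3.23). The genes with the largest ratios in the other direction lay in few transitional cells. Bpifa1, an airway secreted protein, was found in 10 of the 191 cells, Serpinb1a, a protease inhibitor, in 8, and Ccl20 in 28, of which 10 held 98.2% of its UMIs.

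**Figure D4:**
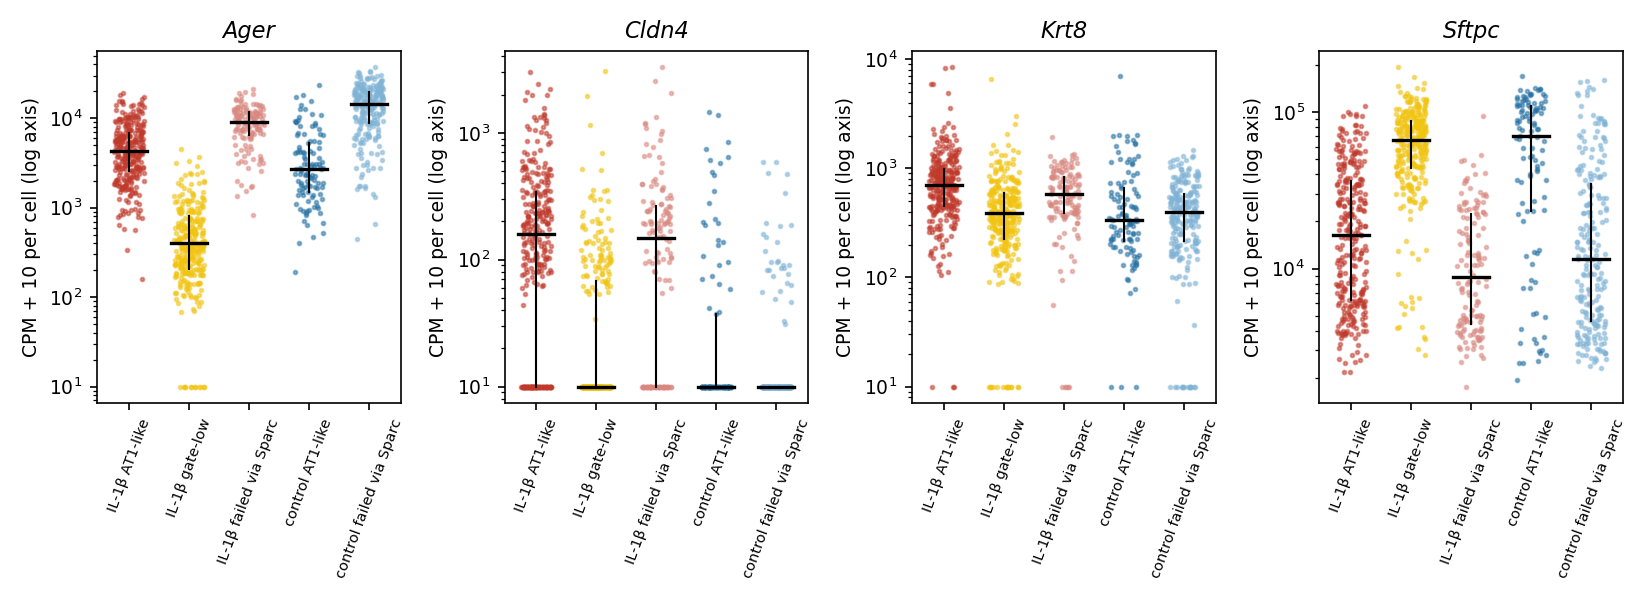
Level per barcode (CPM + 10, log axis) of Ager, Cldn4, Krt8 and Sftpc in IL-1β members, IL-1β gate-low cells (300 drawn at random for display), barcodes lost through Sparc in each library, and control barcodes that passed the gate. Horizontal lines are medians and vertical lines the quartiles over all barcodes of the group. The barcodes lost through Sparc sit higher for Ager than those that passed in both libraries. The median of Cldn4 is at 0 in the control groups and in the IL-1β gate-low cells.

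The question of what IL-1β changed in AT1-like cells was put to the 305 members and the 109 control barcodes that passed the same gate. Of 6729 genes measured, 398 (5.91%) were higher and 158 (2.35%) lower in the IL-1β members, with a median log2 ratio of 0.14. Without surfactant, lysozyme, mitochondrial and ribosomal protein genes in the totals, 248 were higher and 287 lower, and the median fell by 0.23. With Sparc left out of the gate, the 443 and 336 barcodes gave 8467 genes, of which 318 (3.76%) were higher and 201 (2.37%) lower, with a median log2 ratio of 0.03. Levels in gate-low cells and non-epithelial barcodes are given for the NF-κB, glycolysis, transitional and interferon lists, and levels in one or both for several of the leading genes.

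NF-κB targets and chemokines were higher as a list. Of 16 measured, 14 were higher and none lower, with a median log2 ratio of 2.18, and with Sparc left out 13 of 18 were higher, with a median of 2.04. The list summed to 14781.9 against 3305 CPM in members, 23316 against 4877 CPM in gate-low cells and 73014.2 against 13211 CPM in non-epithelial barcodes. The summed level was thus higher in the IL-1β library in all of these groups, but few genes made up most of it. In that library Lcn2 gave 8744 of the 14781.9 CPM in members and 18071.5 of the 23316 CPM in gate-low cells. Saa3 gave 61171.6 of the 73014.2 CPM in non-epithelial barcodes. Tnfaip2, a TNF-induced gene, had 505 UMIs in members (123 CPM) and 2 in the control (0.968 CPM), and with Sparc left out it stood at 100.8 against 2.61 CPM (38.7-fold, 22.9 to 71.2). Gate-low cells showed 77.18 against 3.42 CPM of Tnfaip2, whereas non-epithelial barcodes showed 119.9 and 143.8 CPM. Tnip3 stood at 158.5 against 10.65 CPM (14.9-fold, 9.75 to 23.9), and was 15.4-fold higher (11.5 to 21.1) with Sparc left out. In gate-low cells Tnip3 stood at 45.72 against 3.5 CPM. Lcn2 stood at 8744 against 1724 CPM in members (5.07-fold, 4.90 to 5.25, and 7.95-fold with Sparc left out) and at 18071.5 against 3676 CPM in gate-low cells. Saa3, a serum amyloid A protein, stood at 2931 against 504.3 CPM in members and at 61171.6 against 10185.4 CPM in non-epithelial barcodes of the same libraries, and the part of free RNA in the level of Saa3 was not tested. Cxcl2, a neutrophil chemokine, stood at 97.15 against 15.97 CPM (6.08-fold, 4.26 to 8.96, and 12.2-fold with Sparc left out), and at 64.33 against 10.34 CPM in gate-low cells.

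Tnip3, Ccl20 and Cxcl2 carry the 10-base NF-κB motif close to their start, and their promoters are shown for that reason. The sequences are those of RefSeq on GRCm38.p6, the plus strand, 5′ to 3′, from 250 bases before the start to the last base before the first exon that GENCODE annotates. Capitals mark the motif, which was searched on both strands, with overlapping matches joined. Tnip3 is at chr6:65590148-65590397, Ccl20 at chr1:83116516-83116765 and Cxcl2 at chr5:90903649-90903870.
Tnip3: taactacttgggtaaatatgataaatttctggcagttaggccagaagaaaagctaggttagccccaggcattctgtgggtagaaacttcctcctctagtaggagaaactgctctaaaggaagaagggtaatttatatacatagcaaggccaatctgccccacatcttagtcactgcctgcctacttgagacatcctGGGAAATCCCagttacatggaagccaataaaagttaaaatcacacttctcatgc
Ccl20: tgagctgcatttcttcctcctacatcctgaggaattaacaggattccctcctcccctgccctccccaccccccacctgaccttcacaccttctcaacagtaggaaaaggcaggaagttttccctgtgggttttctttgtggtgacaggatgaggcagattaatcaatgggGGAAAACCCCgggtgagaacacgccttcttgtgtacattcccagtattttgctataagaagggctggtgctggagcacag
Cxcl2: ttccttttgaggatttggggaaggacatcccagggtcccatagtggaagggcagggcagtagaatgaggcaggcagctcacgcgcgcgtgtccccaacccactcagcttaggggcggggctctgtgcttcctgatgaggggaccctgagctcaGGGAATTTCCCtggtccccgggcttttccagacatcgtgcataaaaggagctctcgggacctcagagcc
The match of Tnip3 was found on both strands, 54 to 45 bases before the start. That of Ccl20 lay on the minus strand, 80 to 71 bases before it, and those of Cxcl2 lay 97 to 88 bases before it on the plus strand and 96 to 87 on the minus strand. Of all 32851 promoters of 250 bases, which belong to 27025 genes, 7.25% held the motif. Here and below, shares over all promoters count promoters, whereas shares of gene sets count genes with a match in any promoter. The 2 kinds of share are therefore not like for like. The motif was found in 11 of the 16 genes of the NF-κB list with a promoter entry (68.8%), a list made up of NF-κB targets. It was found in 2 of 13 of the TGF-β and YAP list (15.4%). Of the 15 genes ranked highest in each comparison, those with an entry held it in 6 of 12 against control (50%), 3 of 15 against gate-low cells (20%) and 1 of 13 against transitional cells (7.69%). The letters GGAATG on either strand, the core bound by TEAD factors, were in 12.6% of all promoters, 4 of 16 of the NF-κB list (25%) and 4 of 13 of the TGF-β and YAP list (30.8%). They were in 5 of 15 of the highest genes against gate-low cells (33.3%), 4 of 13 against transitional cells (30.8%) and 2 of 12 against control (16.7%). A match of letters is a description and not a binding site.

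Other genes with large differences from control included Fxyd4, a regulator of the sodium pump, at 668.1 against 14.03 CPM (47.6-fold, 33.1 to 71.2). AW112010 stood at 717.8 against 15.97 CPM (45.0-fold, 31.9 to 65.4). Fxyd4 was 34.4-fold and AW112010 32.3-fold higher with Sparc left out. In gate-low cells Fxyd4 stood at 164.4 against 7.14 CPM and AW112010 at 122.2 against 7.53 CPM. In non-epithelial barcodes Fxyd4 stood at 41.04 against 13.49 CPM and AW112010 at 21.81 against 114.8 CPM, so the direction of AW112010 turned there. Slc16a3, the lactate exporter MCT4, stood at 44.8 against 3.39 CPM (13.2-fold, 6.29 to 33.4, and 32.5-fold with Sparc left out). Ubd, an interferon-induced ubiquitin-like modifier, and Ndufa4l2, a hypoxia-induced mitochondrial gene, had no UMI in the 109 control barcodes. Against 3 counts over that group they were at least 20.5-fold and 23.3-fold higher. Mmp3, a stromal matrix protease, stood at 299.2 against 10.16 CPM in members and at 10984.2 against 328.1 CPM in non-epithelial barcodes.

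Glycolysis and hypoxia genes were higher in 13 of 19 and lower in none, with a median log2 ratio of 1.21, and with Sparc left out in 13 of 20 at the same median. The list summed to 6287 against 2857 CPM in members, 4773 against 2476 CPM in gate-low cells and 7676 against 3941 CPM in non-epithelial barcodes, so a difference of similar size was found outside the members. Pkm, encoding pyruvate kinase, stood at 828.1 against 300 CPM (2.76-fold, 2.53 to 3.01, and 2.09-fold with Sparc left out). Eno1, encoding enolase, stood at 307.3 against 151 CPM (2.04-fold, 1.80 to 2.31), and at 1.61-fold (1.49 to 1.74) was not called with Sparc left out. Ndrg1, a hypoxia-induced gene, stood at 47.72 against 3.39 CPM (14.1-fold, 6.71 to 35.5, and 18.1-fold with Sparc left out). It lay in few cells, found in 63 members, 10 of which held 54.1% of its UMIs, and in 6 control barcodes with 7 UMIs.

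Of 21 DATP and transitional genes, 11 were higher and none lower, and with Sparc left out 9 of 22. Their summed level was 10314.2 against 6890 CPM in members and 4842 against 2401 CPM in gate-low cells, whereas it was 4130 against 4722 CPM in non-epithelial barcodes. The ratio of these sums was thus larger in gate-low cells than in members, and lay the other way in non-epithelial barcodes. The sum of the control members rested in part on few barcodes. Of the 109, 10 held 67.6% of the UMIs of Clu and 10 held 62.7% of those of S100a6, both genes of this list. Cldn4 stood at 307 against 90.98 CPM (3.38-fold, 2.89 to 3.96), and at 282.2 against 53.46 CPM with Sparc left out (5.28-fold, 4.65 to 6.00). The control level with Sparc rested on few cells, since 28 of 109 barcodes held Cldn4 and 10 of them 78.7% of its UMIs. Thinned, Cldn4 was found in 53.1% of members and 15.6% of control barcodes that passed. Krt8 stood at 875.6 against 662.5 CPM (1.32-fold, 1.24 to 1.41, and 1.52-fold with Sparc left out).

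Lhfp, a further transitional gene, was 2.31-fold higher (1.71 to 3.17) and with Sparc left out 2.10-fold (1.73 to 2.55). Of 16 TGF-β and YAP genes, 3 were higher, Itgb6 and Ankrd1 among them, and Ctgf, encoding connective tissue growth factor, was lower (2.69-fold, 1.99 to 3.65). This call turned to a ratio of 1.19 when barcodes outside the cell filter of the study were left out. That filter kept all 305 members and 107 of the 109 control barcodes, so the call rested on very few control barcodes. With Sparc left out, 2 of 16 were higher and 1 lower, and Itgb6 was no longer called.

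Interferon and MHC class I genes depended on the gate. By the gate with Sparc, 13 of 17 were higher, and with Sparc left out 5 of 17, none being lower in either. The list summed to 7687 against 3512 CPM in members, 4248 against 2728 CPM in gate-low cells and 7746 against 7523 CPM in non-epithelial barcodes. With Sparc left out, it summed to 8002 against 5727 CPM in the barcodes that passed. Gbp2 was higher by both gates, at 36.52 against 1.94 CPM and at 36.1 against 2.79 CPM. Ifit3 stood at 251 against 108.4 CPM with Sparc and at 282.9 against 351 CPM without, so its direction turned. Of the 6 MHC class II genes, 4 were higher with Sparc and 1 without, with medians of 1.03 and 0.91. Of 12 tight junction genes, 2 were higher and none lower by either gate. No integrin or basement membrane gene was called of 16 with Sparc, and 1 of 17 was lower without.

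**Figure D5:**
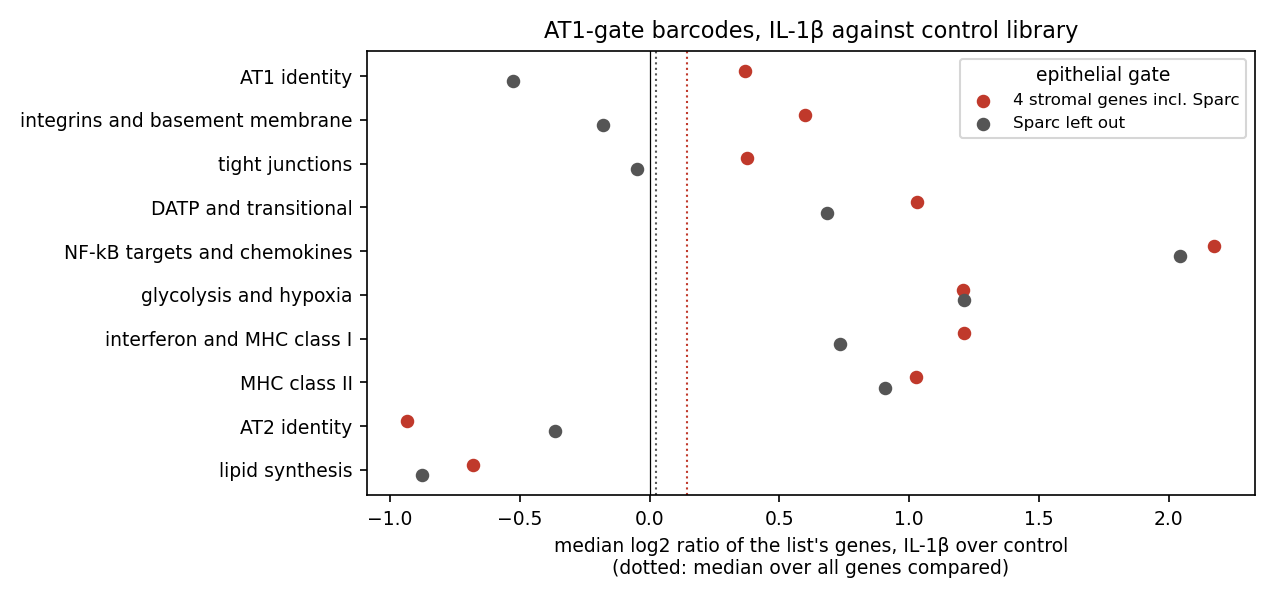
Median log2 ratio of 10 gene lists, IL-1β over control, for barcodes passing the AT1 gate, by the epithelial gate with Sparc (red) and with Sparc left out (grey); dotted lines are medians over all genes compared. The median of the NF-κB list goes from 2.18 to 2.04 and that of MHC class II from 1.03 to 0.91, although 4 MHC class II genes are higher with Sparc and 1 without, while the AT1 identity list moves from 0.37 to -0.53 and the basement membrane list from 0.60 to -0.18.

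AT1 genes themselves changed place with the gate. By the gate with Sparc, 3 of 24 AT1 genes were higher and none lower in IL-1β members, with a median log2 ratio of 0.37. With Sparc left out, 1 of 25 was higher and 7 were lower, with a median of -0.53. Ager stood at 5307 against 3530 CPM with Sparc (1.5-fold higher, 1.46 to 1.54) and at 6511 against 9386 CPM without (1.44-fold lower, 1.42 to 1.46). Aqp5 stood at 1434 against 1058 CPM with Sparc and at 1535 against 1652 CPM without. Vegfa stood at 237.4 against 208.1 CPM with Sparc and at 291.5 against 576.7 CPM without (1.98-fold lower, 1.86 to 2.10). Cav1 stood at 39.2 against 38.72 CPM with Sparc and was 2.83-fold lower (2.48 to 3.24) without. Igfbp2, Spock2 and Limch1 were the lowest of the list with Sparc left out. Igfbp2 stood at 4.75 against 549.7 CPM with Sparc left out (116-fold lower, 80.0 to 175), and with Sparc in the gate at 1 UMI against 52 UMIs, or 103-fold lower (17.8 to 4160), with too few UMIs for a call. Its direction was thus the same by both gates. Spock2 was 4.72-fold lower (4.04 to 5.53) and Limch1, an actin-binding protein, 4.08-fold lower (3.64 to 4.57) with Sparc left out. By the gate with Sparc both were below the control as well, by 1.83-fold (1.25 to 2.66) for Spock2 and 1.83-fold (1.49 to 2.26) for Limch1. S100a14, a calcium-binding protein, was the AT1 list gene that was higher by both gates (4.14-fold, 3.46 to 4.97, and 2.90-fold, 2.64 to 3.19).

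AT2 and lipid genes were lower in part. Of 19 AT2 genes, 9 were lower and 3 higher, and with Sparc left out 6 lower and 3 higher. The median log2 ratio of the AT2 list was -0.93. With an epithelial sum at least 5 times the stromal sum (31 and 8 barcodes) this median turned to 0.26. Of 16 lipid genes, 6 were lower and none higher, and with Sparc left out 5 were lower. Sftpc stood at 25104.2 against 67889 CPM (2.70-fold lower, 2.68 to 2.73, and 2.04-fold with Sparc left out) and Etv5, a transcription factor downstream of FGF signalling, at 51.13 against 209.6 CPM (4.10-fold lower, 3.47 to 4.86, and 2.79-fold with Sparc left out). Sftpd ran the other way, at 6737 against 1937 CPM (3.48-fold, 3.36 to 3.6), and Chil1, a chitinase-like protein, at 4524 against 1632 CPM (2.77-fold, 2.67 to 2.88). Sftpd was 4.66-fold and Chil1 4.31-fold higher with Sparc left out. Fasn, encoding fatty acid synthase, stood at 265.4 against 853.2 CPM (3.21-fold lower, 2.98 to 3.47) and Scd1 at 2569 against 9515 CPM (3.70-fold lower, 3.62 to 3.79). Fasn was 2.40-fold and Scd1 2.64-fold lower with Sparc left out. In gate-low cells Scd1 stood at 5220 against 17220.3 CPM, so the difference in it was not limited to members. Bex2, a small adaptor protein, was the lowest against control, with 4 UMIs in members (0.974 CPM) against 363.9 CPM, and stood at 21.81 against 859.5 CPM in gate-low cells. Scgb1a1, the club cell secretoglobin, stood at 11.2 against 495.1 CPM, and 10 of the control barcodes held 95.1% of its UMIs there.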

How the data were processed

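Droplet-based 3′ scRNA-seq was performed on 1 control and 1 IL-1β-treated organoid library. The deposited matrices hold counts of UMIs per gene and barcode, which the authors made with Cell Ranger; GRCm38 and mm9 are both listed as builds and Scanpy 1.3.6 as a tool, and the files held 27998 genes. Members and gene lists were chosen with earlier results of these data known. Epithelial and AT1 gates were applied to raw UMIs, UMIs were summed per group and divided by the group total, and ratios were given exact conditional 95% intervals (Python 3.11.15, numpy 2.4.6, scipy 1.17.1, pandas 2.3.3). Genes needed 100 UMIs in both groups together. Gate genes were left out of all comparisons that used them. Named genes were the members of fixed lists, of which examples were picked for their role and not strictly by UMIs, and the 15 highest and 10 lowest genes of each comparison, ranked by the interval limit nearest 1. Tested on simulated data with 200 changed genes, the rule called 98.5% of them against gate-low cells, 85% against control and 80.5% against transitional cells. These data held counting error only, without spread among cells or between libraries. The shares therefore cannot tell how the rule fares with genes held by few cells or with a difference between libraries. The cell filters of the study were an alternative, doublets were not removed and no doublet caller was run, so the barcodes deposited were used as they stood. Positions came from GENCODE M21 (GRCm38) and promoters from RefSeq (GRCm38.p6). Alternatives covered the gate, the scaling, the depth and the UMI minimum. Figures were drawn with matplotlib 3.10.9.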

Additional observations from a re-analysis of the deposited data

How the results depend on the processing

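No paired analysis was possible because each condition has 1 library. No called ratio against gate-low cells changed direction among the named genes with a value, 85 under most alternatives, 84 with thinned gates or low Sftpc, 81 without the deepest 10% of barcodes and 68 with the epithelial sum at least 5 times the stromal sum. The share of members was 14.3% (control 14.5%) at 3 or more UMIs, 10.7% (8.36%) at 6 or more, and 10.8% (7.58%) when 2 of the 3 genes were required. With an epithelial sum of at least 5 times the stromal sum it was 3.53% (2.17%, 31 and 8 barcodes). Under that gate 252 genes were lower than in gate-low cells, 76 higher and 22 lower than in control, and 62 higher and 43 lower than in transitional cells. Against control the median log2 ratio was then -0.33 for AT1, 0.26 for AT2, -0.28 for basement membrane and -0.41 for tight junction genes, and Lyz2 had a ratio of 2.46. Against transitional cells it was 0.31 for transitional and -0.42 for lipid genes, and Ndufa4l2 had a ratio of 1.05. With 20 UMIs as the minimum, 755 genes were higher and 419 lower than in control, and 629 and 339 than in transitional cells. Totals without surfactant, lysozyme, mitochondrial and ribosomal protein genes gave 517 higher against gate-low cells, and 248 higher and 287 lower against control. Among barcodes with Sftpc below the gate-low median, AT1 genes had a median of -0.25 against control. Gating on thinned barcodes gave Ubd a ratio of 2.13 against transitional cells, and the cell filter of the study gave Ctgf 1.19 against control. With Sparc left out, an alternative chosen after seeing the data, the shares were 17.3% and 26.0%. Medians against control became -0.53 for AT1, -0.18 for basement membrane and -0.048 for tight junction genes, and ratios became 0.488 for Col4a3, 0.753 for Sema3e, 0.956 for Pdgfa, 0.354 for Cav1, 0.828 for Wnt7a and 0.806 for Ifit3. The cause of these changes was not tested. The 109 control barcodes gave 2066328 UMIs, which limits the genes that could be compared. Ratios against 0 control UMIs had no value and are left out here.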
